A study of Homo sapiens with 24 samples.

Results

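The response of LN229 cells to STM2457 was read from 6 of the 24 libraries of the study, the 3 LN229 libraries treated with STM2457 and the 3 LN229 libraries treated with DMSO that share 1 deposited table. LN229 is an established human glioblastoma line. The STM2457 cells received 50 µM of the compound for 96 h, and the DMSO cells received an equal volume of this solvent for the same time. Polyadenylated RNA was sequenced from cells grown in DMEM with serum. The other libraries come from LN229-R, a temozolomide-resistant derivative whose medium held 50 µM temozolomide, from the glioblastoma line U87 MG and from its own resistant derivative. The labels name no temozolomide in the medium of LN229 cells, in either group. Replicates are not stated to be separate cultures, so a p-value measures only the spread between these libraries, which may be technical.

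The target of STM2457 is METTL3, the methyltransferase of the nuclear complex that methylates adenosine in mRNA to N6-methyladenosine (m6A). METTL3 works with METTL14 and with adaptors such as WTAP, VIRMA, RBM15 and RBM15B. Proteins of the YTH family bind the mark and speed the decay of many mRNAs that carry it, while the demethylases FTO and ALKBH5 remove it. The protein complexes left on spliced exon junctions keep the writer away from nearby bases, so m6A is known to gather in long internal exons, in last exons and in mRNAs with few exons.

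The table gives normalized counts for 22723 genes, and the 17107 with a mean of at least 10 over the 6 libraries were tested. Changes are differences of log2(normalized count + 1), STM2457 minus DMSO, given with their standard error (SE). A gene passed, and is said to rise, fall or change, at an adjusted p under 0.05 (limma, Benjamini and Hochberg over all genes tested). Library totals were 24101385 to 25055940 after normalization, so the sequencing depth cannot be read from them. Pearson correlations between libraries over genes were 0.974 to 0.983 within STM2457, 0.985 to 0.988 within DMSO and 0.924 to 0.940 between the groups.

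The line names conflict between the deposited tables. All 6 DMSO columns of the table that sets LN229 against LN229-R were closest to the like-numbered library that carries the other line's name in the STM2457 tables. The SD of the log2 ratio over 11059 genes was 0.0577 to 0.061 for that match and 0.352 to 0.400 for the like-named library. The names of the table of LN229 cells with STM2457 and DMSO are kept here. Both groups of that table carry the same line-specific genes. TUBA3C had 104.5 to 247.6 normalized counts with STM2457 and 600.1 to 602.4 with DMSO, and SLIT3 had 429.2 to 465.0 with STM2457 and 290.4 to 346.1 with DMSO. Neither gene has a row in the table of LN229-R cells with STM2457 and DMSO. Exchanged names would leave each contrast as it is and move it to the other line, with 6591 genes changed in place of 8506.

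STM2457 replicate 2 stood apart from the other STM2457 libraries in several gene groups. The level of a list is given as the mean over its tested members of the log2 level minus that gene's mean over the 6 libraries. G2 and M phase genes were at -0.31, -1.15 and -0.16 in STM2457 replicates 1 to 3, against 0.52, 0.47 and 0.66 in DMSO. Type I interferon genes were at 0.08, 1.69 and -0.30 in STM2457 replicates 1 to 3, against -0.49, -0.68 and -0.66 in DMSO. Replicate 2 was thus the lowest library for cell cycle genes and the highest for interferon genes. It was also the highest for NRF2 target, ATF4 target and MHC class I genes, and the lowest for splicing factor and ribosomal protein genes. Counts or medians without it are given below for several lists, but not for every list that moved without it.

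**Figure D1:**
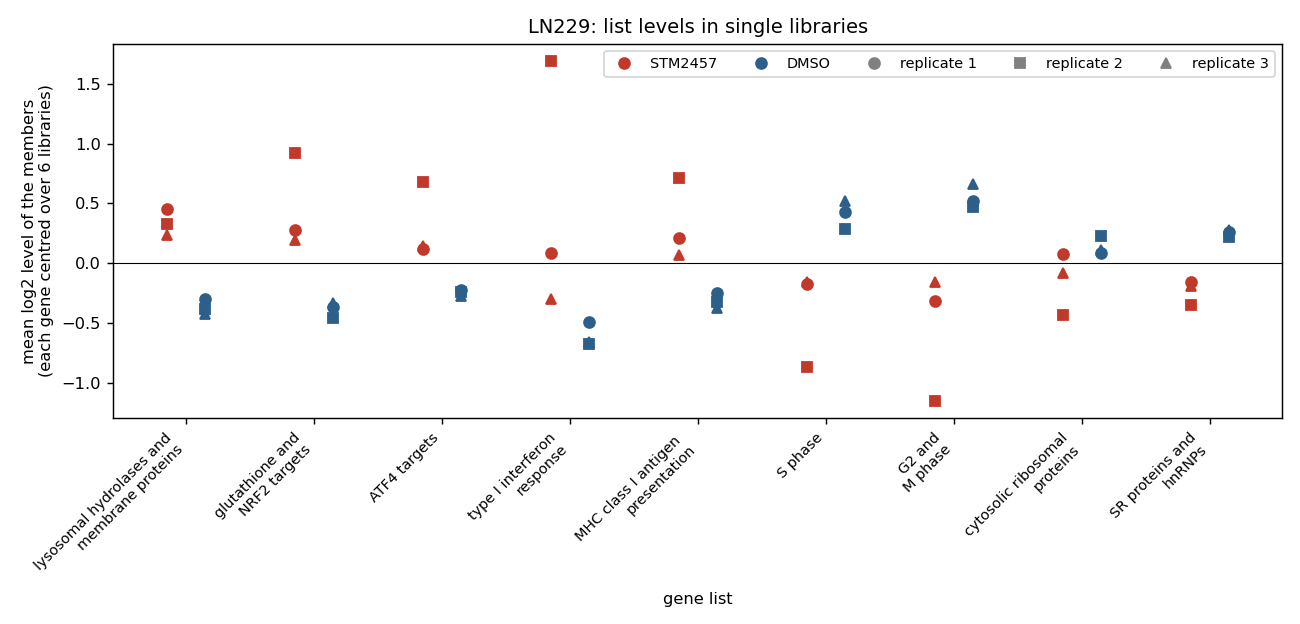
Level of 9 gene lists in each LN229 library, STM2457 libraries left of DMSO libraries. The vertical axis is the mean over list members of the log2 level after subtracting each gene's mean over the 6 libraries, and each point is 1 library. Lysosomal genes separate the groups with little spread, while STM2457 replicate 2 is the highest or lowest library for each of the other lists shown.

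Markers of cell types were read as summed normalized counts. Astrocyte and glioma markers summed to 74480 to 88010 in STM2457 libraries and 101200 to 107000 in DMSO libraries, with AQP4 absent from the table. GFAP, the intermediate filament of astrocytes, averaged 36.6 with STM2457 and 82.7 with DMSO and did not pass (adjusted p = 0.92). Oligodendrocyte markers summed to 51330 to 55270 with STM2457 and 44400 to 47950 with DMSO, most of it from SOX10. Neuron markers summed to 3851 to 4866 with STM2457 and 6362 to 6622 with DMSO, with no row for RBFOX3. Microglia and macrophage markers summed to 268.2 to 706.7 with STM2457 and 70.07 to 107.8 with DMSO, and their defining members PTPRC, AIF1 and CX3CR1 have no row. Endothelial markers summed to 223.4 to 262.1 with STM2457 and 70.38 to 78.75 with DMSO. Pericyte and fibroblast markers overlapped, at 1788 to 3223 with STM2457 and 2080 to 2809 with DMSO. In bulk RNA, fewer cells of a type and less RNA per cell cannot be told apart. The part of these markers, and of STM2457 replicate 2 beyond the counts given without it, was not tested.

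STM2457 changed 8506 of 17107 genes in LN229 cells (49.7%), 4474 higher (26.2%) and 4032 lower (23.6%). A log2 change of at least 1 was reached by 1738 of the risers (10.2% of genes tested) and 1129 of the fallers (6.6%). The median log2 change over all genes was -0.003. Lysosomal, lipid, NRF2, ATF4 and antigen presentation genes held more risers than this background, and cell cycle, splicing factor, DNA repair, oxidative phosphorylation and proteasome genes held more fallers. Groups did not overlap for 10361 genes (60.6%), so the absence of overlap alone is common in this comparison.

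**Figure D2:**
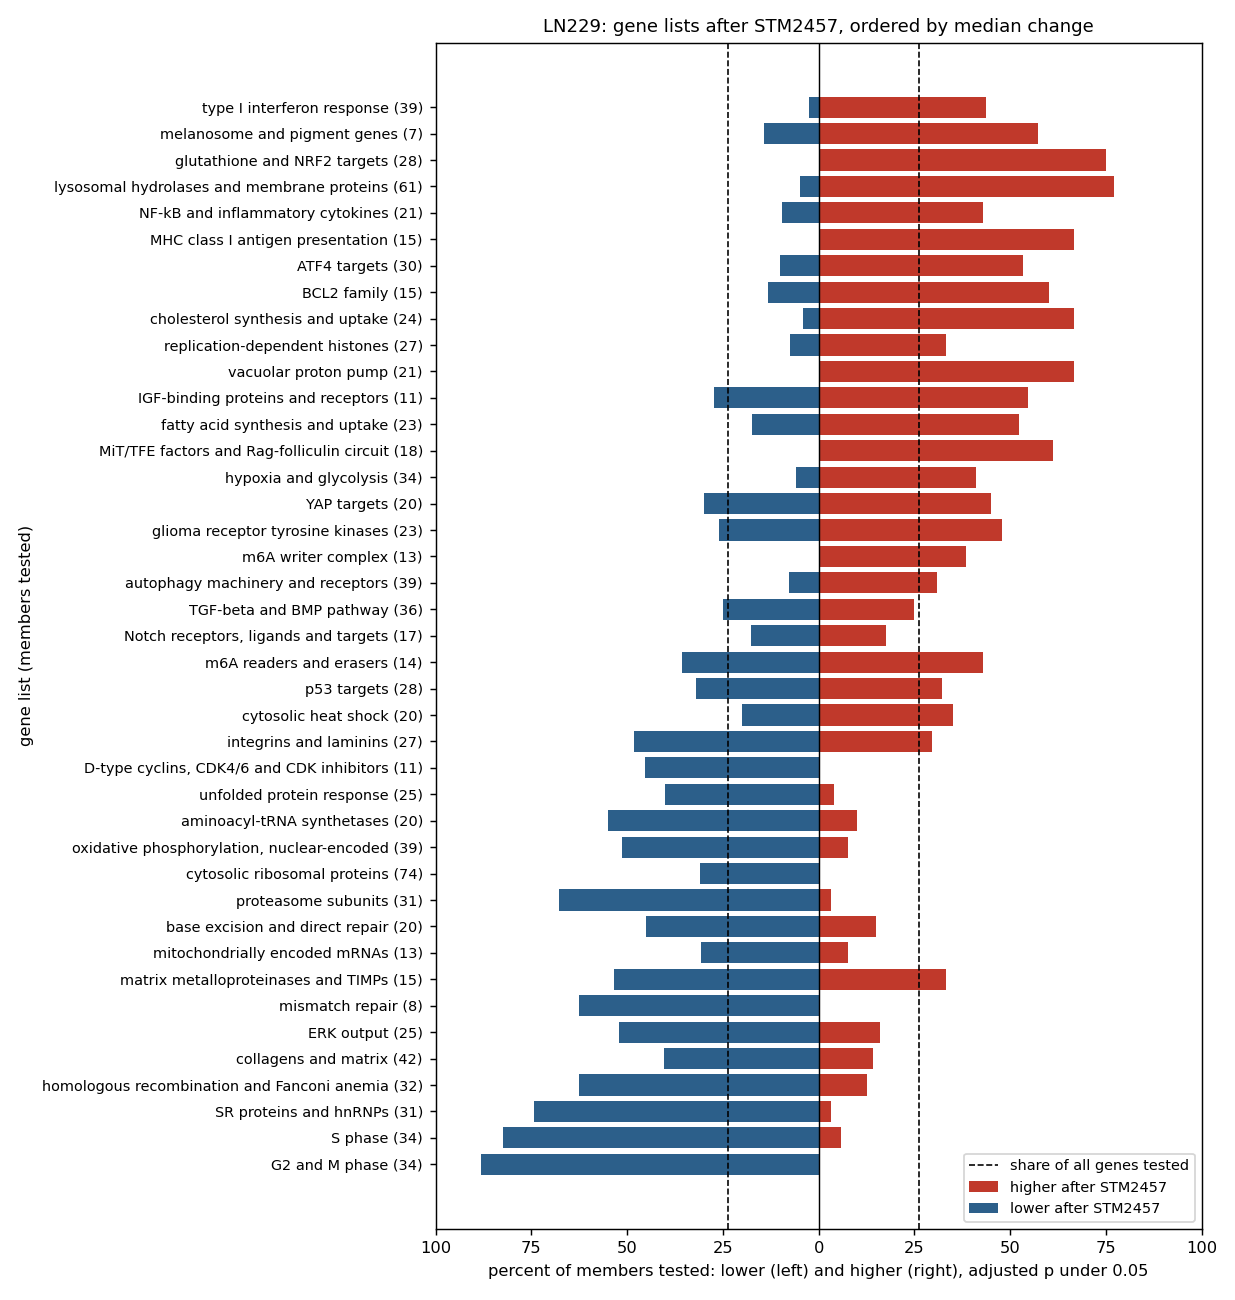
Share of the tested members of each gene list that rose (right of 0) or fell (left of 0) with STM2457 in LN229, in percent of members tested. The dashed lines mark the shares of all genes tested, 26.2% higher and 23.6% lower, and lists far outside them include lysosomal hydrolases (47 of 61 higher) and G2 and M phase genes (30 of 34 lower).

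The promoters of lysosomal and pigment genes are shown first. Most of the lysosomal genes tested rose (47 of 61), as did 4 of 7 pigment genes tested. The 4 include TYR, which entered the test only through the STM2457 libraries. Promoters are printed only for members that rose and that hold a motif named below. The printed promoters therefore do not show how often risers hold a motif. MITF, TFEB and TFE3 are related transcription factors that bind the palindrome CACGTG in promoters of lysosomal genes and the related motif TCATGTG in promoters of pigment genes. Each window runs from 250 bases before to 50 bases after a RefSeq transcript start in GRCh38.p14, written along the gene's strand with the motif in capitals. The first 4 are NEU1 (sialidase, chr6:31862772-31863071, minus strand), RRAGC (a Rag GTPase, chr1:38859723-38860022, minus strand), IGF2R (the receptor that sorts hydrolases to lysosomes, chr6:159968832-159969131, plus strand) and CLN3 (a lysosomal membrane protein, chr16:28492025-28492324, minus strand).
NEU1: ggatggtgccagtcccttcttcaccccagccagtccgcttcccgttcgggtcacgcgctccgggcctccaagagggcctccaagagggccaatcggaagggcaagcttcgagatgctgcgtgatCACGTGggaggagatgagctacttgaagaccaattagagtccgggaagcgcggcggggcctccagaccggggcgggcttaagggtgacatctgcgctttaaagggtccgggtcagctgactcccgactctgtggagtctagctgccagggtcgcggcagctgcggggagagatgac
RRAGC: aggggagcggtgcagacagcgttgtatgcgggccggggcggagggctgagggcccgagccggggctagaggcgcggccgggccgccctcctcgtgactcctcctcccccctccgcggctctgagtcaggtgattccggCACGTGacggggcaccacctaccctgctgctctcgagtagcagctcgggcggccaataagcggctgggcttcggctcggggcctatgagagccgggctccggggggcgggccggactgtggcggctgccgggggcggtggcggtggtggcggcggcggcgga
IGF2R: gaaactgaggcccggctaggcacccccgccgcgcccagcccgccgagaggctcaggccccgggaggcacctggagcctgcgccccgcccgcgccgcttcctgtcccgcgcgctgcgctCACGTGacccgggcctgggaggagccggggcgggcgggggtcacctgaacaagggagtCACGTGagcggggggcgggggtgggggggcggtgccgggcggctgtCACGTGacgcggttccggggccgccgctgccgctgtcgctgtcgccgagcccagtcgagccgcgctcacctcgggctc
CLN3: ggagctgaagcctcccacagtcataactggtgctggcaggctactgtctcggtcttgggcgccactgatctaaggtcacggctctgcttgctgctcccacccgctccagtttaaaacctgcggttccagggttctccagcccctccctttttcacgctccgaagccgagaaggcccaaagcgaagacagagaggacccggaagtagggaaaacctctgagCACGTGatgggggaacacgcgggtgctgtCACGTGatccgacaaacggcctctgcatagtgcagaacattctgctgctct
In NEU1 the motif starts 126 bases before the transcript start and in RRAGC 112 bases before it. IGF2R holds CACGTG at 132, 74 and 28 bases before the start, and CLN3 at 30 bases and 1 base before it. The motif TCATGTG, chosen after the values were seen, is shown in GPNMB (chr7:23246525-23246824, plus strand), DCT (chr13:94479633-94479932, minus strand) and TYR (chr11:89177625-89177924, plus strand), where CACATGA is the same motif on the other strand.
GPNMB: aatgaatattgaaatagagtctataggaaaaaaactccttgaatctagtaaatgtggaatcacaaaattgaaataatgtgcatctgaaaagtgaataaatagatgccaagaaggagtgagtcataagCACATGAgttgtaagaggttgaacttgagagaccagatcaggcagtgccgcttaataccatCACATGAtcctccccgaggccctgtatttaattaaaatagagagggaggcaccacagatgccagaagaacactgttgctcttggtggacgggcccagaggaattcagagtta
DCT: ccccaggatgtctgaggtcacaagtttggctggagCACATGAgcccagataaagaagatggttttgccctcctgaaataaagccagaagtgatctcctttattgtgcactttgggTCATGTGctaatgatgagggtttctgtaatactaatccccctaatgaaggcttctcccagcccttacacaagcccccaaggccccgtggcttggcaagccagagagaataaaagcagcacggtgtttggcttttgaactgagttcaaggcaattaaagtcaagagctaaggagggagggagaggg
TYR: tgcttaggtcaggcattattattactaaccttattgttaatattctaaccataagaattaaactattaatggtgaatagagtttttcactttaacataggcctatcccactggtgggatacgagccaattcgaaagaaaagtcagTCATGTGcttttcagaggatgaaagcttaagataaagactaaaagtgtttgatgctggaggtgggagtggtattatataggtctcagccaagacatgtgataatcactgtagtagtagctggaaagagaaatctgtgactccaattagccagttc
In GPNMB both matches lie on the other strand, 123 and 62 bases before the start. DCT has 1 match on the other strand at 215 bases and 1 on the gene's strand at 135 bases before the start, and TYR has 1 at 105 bases. CACGTG reads alike on both strands and shares no site with TCATGTG, which was searched on both strands. A gene counted as holding a motif if any of its windows did. CACGTG stood in 2396 of the 27305 genes with a window (8.77%) and TCATGTG in 981 (3.59%), and among genes tested the shares were 12.3% and 2.59%. Of the lysosomal list, 15 of 42 matched members held CACGTG (35.7%), 8 of the 30 that rose and 7 of the 12 that did not. TCATGTG stood in 3 of 5 matched pigment genes. Among genes tested, CACGTG stood in 445 of 3183 risers, 306 of 2853 fallers and 690 of 5649 others, and TCATGTG in 3.86% of risers, 1.51% of fallers and 2.43% of others.

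Lysosomal genes rose as a group. Of 61 hydrolases and membrane proteins tested, 47 were higher with STM2457 and 3 were lower, with a median log2 change of 0.77. NAGLU, which removes N-acetylglucosamine from heparan sulfate, had 9507, 8809 and 8626 normalized counts in STM2457 replicates 1 to 3, against 2176, 2247 and 2185 in DMSO (log2 change 2.03, SE 0.07, adjusted p = 5.7e-06). NPC1, the transporter that moves cholesterol out of lysosomes, had 8236, 7057 and 7171 with STM2457, against 1581, 1699 and 1513 in DMSO (2.23, SE 0.09, adjusted p = 5.7e-06). Each STM2457 library was above every DMSO library for both genes, with little spread inside the groups. The protease cathepsin L (CTSL) had 4568, 4706 and 4053 with STM2457, against 1573, 1592 and 1620 in DMSO (1.47, SE 0.08, adjusted p = 1.1e-05). SMPD1, the acid sphingomyelinase, had 9881, 9071 and 8679 with STM2457, against 3413, 3068 and 3281 in DMSO (1.5, SE 0.08). The genes whose promoters are printed above were picked from the risers, so their rise says nothing about the motif. NEU1 had 4405, 5197 and 4217 with STM2457, against 1334, 1323 and 1460 in DMSO (1.74, SE 0.10), and IGF2R rose by 1.27 (SE 0.09) and CLN3 by 1.12 (SE 0.09). Leaving out any 1 library left 38 to 48 higher members.

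The proton pump that acidifies lysosomes rose with them, 14 of 21 subunits higher and none lower (median 0.40). ATP6V0E1, a small subunit of its membrane sector, had 8645, 8881 and 7622 with STM2457, against 1921, 1940 and 2067 in DMSO (2.08, SE 0.09, adjusted p = 5.7e-06). ATP6V1B2 (0.84, SE 0.08) and ATP6V1F (0.94, SE 0.09) of the cytosolic sector rose less. A list of MiT/TFE factors and of the Rag and folliculin proteins that hold them at the lysosome had 11 of 18 higher and none lower (median 0.33). That list also counts GPNMB, a pigment gene given below, among its risers. The Rag GTPase gene RRAGD had 1696, 1770 and 1465 with STM2457, against 387.5 to 474.8 in DMSO (1.97, SE 0.12, adjusted p = 1.3e-05), and RRAGC, whose promoter is shown above, rose by 1.37 (SE 0.10). MITF, picked after its values were seen, had 2213, 1519 and 2564 with STM2457, against 1086, 754.8 and 1166 in DMSO (1.06, SE 0.22, adjusted p = 0.0045). TFEB and TFE3 did not pass, at 0.23 and 0.06. Autophagy genes were nearer the background, 12 of 39 higher and 3 lower (median 0.05), with WIPI1 (1.47, SE 0.13), the receptor OPTN (1.16, SE 0.12) and MAP1LC3B (0.72, SE 0.08) among the risers.

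Pigment cell genes held some of the steepest rises. GPNMB, a glycoprotein of melanosomes and lysosomes on chromosome 7 (23235967 to 23275108, plus strand, GRCh38), had 53840, 22680 and 47280 with STM2457, against 2579, 920 and 3504 in DMSO (4.25, SE 0.49, adjusted p = 0.00027). DCT, which encodes the melanin enzyme dopachrome tautomerase on chromosome 13 (94436808 to 94479682, minus strand), had 6734, 2020 and 7111 with STM2457, against 39.32, 27.51 and 57.41 in DMSO (6.82, SE 0.47, adjusted p = 2.3e-05). Replicate 2 was the lowest of its group for both genes in STM2457 and in DMSO. TYR, the tyrosinase gene, had 33.94, 2.088 and 27.36 with STM2457 and was listed at 0 in all 3 DMSO libraries. It entered the test only through the STM2457 libraries, so its passing is no support. Of the 7 pigment genes tested, 4 with TYR and 3 without it were higher and 1 was lower (median 0.80), with RAB27A of melanosome transport up by 0.80 (SE 0.12). CAPN3, a calpain protease gene, had 1729, 1023 and 1417 with STM2457, against 93.95, 34.25 and 96.09 in DMSO (4.31, SE 0.38).

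**Figure D3:**
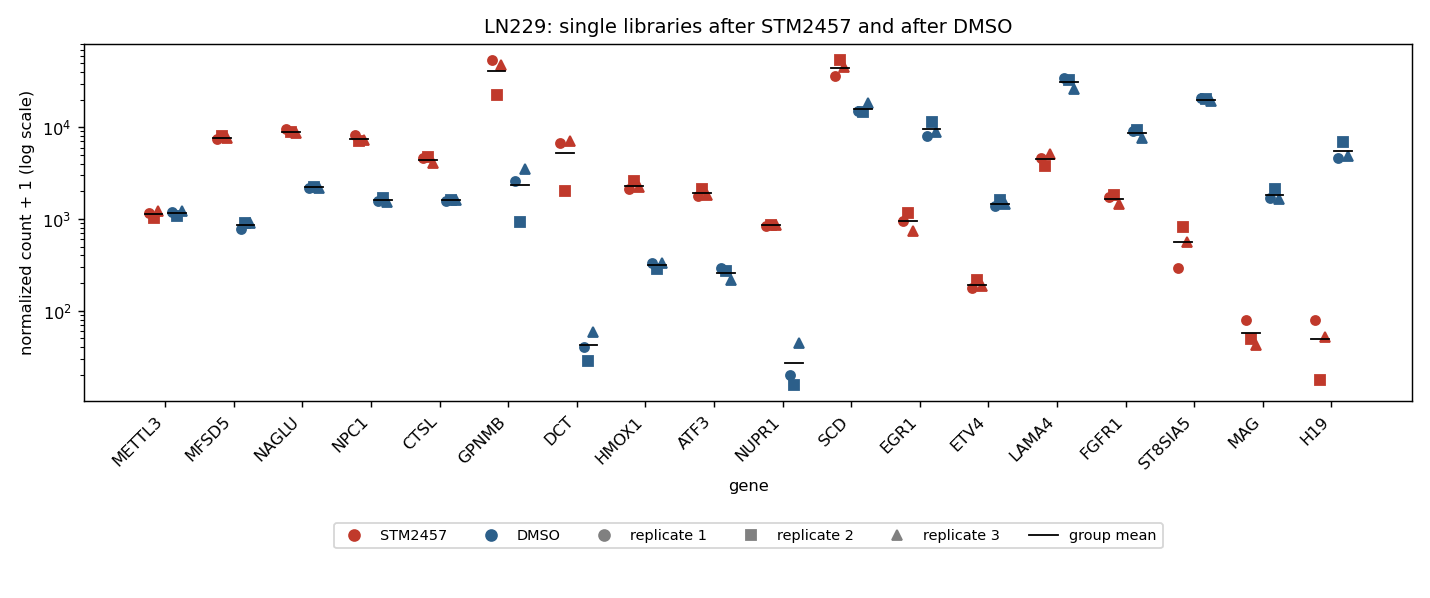
Normalized count + 1 of 18 genes in the LN229 libraries on a log axis, with STM2457 left of DMSO, each point 1 library and the black bar the group mean. METTL3 overlaps between the groups, while MFSD5 (7483 to 7975 with STM2457 and 771 to 899 with DMSO) and H19 (16.3 to 77.76 with STM2457 and 4580 to 6977 with DMSO) lie far apart.

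METTL3 itself did not pass, and several of its partners rose. METTL3, on chromosome 14 (21498133 to 21511375, minus strand), had 1152, 1013 and 1218 with STM2457, against 1190, 1081 and 1205 in DMSO (-0.04, SE 0.10, adjusted p = 0.74). The compound acts on the protein, so this RNA level does not report its action. Of 13 writer genes, 5 rose and none fell (median 0.17), but only 3 rose without DMSO replicate 2 or without DMSO replicate 3. RBM15B had 7292, 6191 and 7333 with STM2457, against 3994, 3806 and 3818 in DMSO (0.84, SE 0.09, adjusted p = 0.00019). WTAP had 1838, 2171 and 1769 with STM2457, against 1229, 1182 and 1209 in DMSO (0.67, SE 0.09, adjusted p = 0.00076). METTL16, which methylates the mRNA of S-adenosylmethionine synthetase, rose by 0.72 (SE 0.10), RBM15 by 0.64 (SE 0.18) and VIRMA by 0.26 (SE 0.08). METTL14 (0.17), ZC3H13 (0.23) and CBLL1 (-0.01) did not pass.

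Readers and erasers split, 6 of 14 higher and 5 lower (median -0.01), with 3 higher without DMSO replicate 2. YTHDF2, the reader that recruits mRNA decay, had 6179, 6082 and 6217 with STM2457, against 3359, 3458 and 3373 in DMSO (0.86, SE 0.07, adjusted p = 4.6e-05). YTHDF1 (0.65, SE 0.07) and YTHDF3 (0.29, SE 0.08) rose as well, as did the demethylases ALKBH5 (0.29, SE 0.08) and FTO (0.28, SE 0.08). IGF2BP2, a reader that stabilizes its targets, had 1344, 1299 and 1343 with STM2457, against 2889, 2508 and 2609 in DMSO (-1.0, SE 0.08, adjusted p = 4.9e-05). YTHDC2 fell by 0.63 on the log2 scale (SE 0.10).

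Lipid genes rose, in particular those of cholesterol. Of 24 cholesterol synthesis and uptake genes, 16 were higher and 1 lower (median 0.53). INSIG1, the endoplasmic reticulum protein that restrains sterol synthesis, had 9209, 13510 and 13180 with STM2457, against 4285, 4031 and 3967 in DMSO (1.53, SE 0.14, adjusted p = 0.0001). NSDHL (1.25, SE 0.11) and SC5D (1.20, SE 0.12) of the late pathway rose as well. In fatty acid synthesis and uptake, 12 of 23 genes were higher and 4 lower (median 0.36), with 1 or 2 lower when any DMSO library, STM2457 replicate 1 or STM2457 replicate 3 was left out. SCD, the stearoyl-CoA desaturase gene, had 35930, 53570 and 44940 with STM2457, against 14900, 14610 and 18200 in DMSO (1.48, SE 0.16, adjusted p = 0.00021). The acyl-CoA synthetase gene ACSL1 rose by 1.70 (SE 0.09). Among the fallers was FABP7, the fatty acid carrier of radial glia. FABP7 had 860.3, 482.7 and 967.4 with STM2457, against 3828, 4079 and 3155 in DMSO (-2.31, SE 0.24).

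Oxidative and amino acid stress genes rose, while endoplasmic reticulum chaperones did not. Of 28 glutathione and NRF2 target genes, 21 were higher and none lower (median 0.77), and 22 were higher and 1 lower without STM2457 replicate 2. HMOX1, which breaks down heme, had 2104, 2570 and 2207 with STM2457, against 333.8, 284.7 and 332.1 in DMSO (2.85, SE 0.11, adjusted p = 5.7e-06). OSGIN1 had 1411, 3739 and 1638 with STM2457, against 243.3, 279 and 342.4 in DMSO (2.84, SE 0.33), with replicate 2 the highest. The iron storage gene FTH1 rose by 1.27 (SE 0.16) and the aldose reductase gene AKR1B1 by 1.38 (SE 0.18). Of 30 ATF4 targets, 16 were higher and 3 lower (median 0.65), against 16 and 8 without STM2457 replicate 2. ATF3, a transcription factor of the same stress pathway, had 1771, 2112 and 1820 with STM2457, against 287.3, 267.2 and 217.1 in DMSO (2.89, SE 0.13, adjusted p = 6e-06). NUPR1, a small stress-induced chromatin protein, had 840.4, 863.8 and 849.4 with STM2457, against 19.04, 14.41 and 43.44 in DMSO (5.15, SE 0.35, adjusted p = 2.1e-05). The amino acid transporter gene SLC7A5 had 31790, 52470 and 38620 with STM2457, against 5851, 5571 and 8331 in DMSO (2.63, SE 0.21). VLDLR, a lipoprotein receptor on the ATF4 list, rose by 1.60 (SE 0.09).

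In the unfolded protein response, 10 of 25 genes were lower and 1 higher (median -0.20), with 13 lower without STM2457 replicate 2. HSP90B1, the chaperone GRP94, had 13850, 12990 and 12170 with STM2457, against 45340, 46580 and 40380 in DMSO (-1.76, SE 0.10, adjusted p = 1.3e-05). HYOU1 (-1.28, SE 0.09), CRELD2 (-1.25, SE 0.11) and MANF (-0.91, SE 0.09) fell with it. Cytosolic heat shock genes were mixed, 7 of 20 higher and 4 lower (median -0.11), with 2 lower without DMSO replicate 1. HSPA1B (1.18, SE 0.24), DNAJB1 (0.92, SE 0.13) and HSPB8 (1.06, SE 0.16) rose, and HSPA4L fell by 1.34 on the log2 scale (SE 0.16). HSPA1B has a near-identical copy, so its reads may be split and its value is uncertain.

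Interferon and antigen presentation genes were higher, most of all in STM2457 replicate 2. Of 39 type I interferon genes, 17 were higher and 1 lower (median 1.24). Without STM2457 replicate 2 the counts were 24 and 4 with a median of 0.53, and without any 1 DMSO library 8 were higher. IFIT3, an interferon-induced protein gene, had 2013, 9018 and 2264 with STM2457, against 863.8, 617.3 and 745.1 in DMSO (2.23, SE 0.49, adjusted p = 0.0064). STAT2, a transcription factor of the interferon pathway, had 4631, 7375 and 4175 with STM2457, against 2741, 2750 and 2843 in DMSO (0.91, SE 0.19, adjusted p = 0.0045). The groups did not overlap for either gene, and replicate 2 was the highest. ISG20 (1.92, SE 0.27) and DTX3L (1.55, SE 0.32) also passed.

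Of 15 MHC class I genes, 10 were higher and none lower (median 0.68), against 10 higher and 1 lower without STM2457 replicate 2 and 6 higher without DMSO replicate 3. HLA-E had 8925, 10860 and 8202 with STM2457, against 3846, 4151 and 3723 in DMSO (1.25, SE 0.11, adjusted p = 8.1e-05). NLRC5, the activator of class I genes, rose by 1.5 (SE 0.27), the peptide transporter gene TAP2 by 0.76 (SE 0.17) and the peptidase gene ERAP1 by 0.57 (SE 0.11). HLA genes share long near-identical stretches, so reads may be assigned to the wrong member. Among NF-kB and cytokine genes, 9 of 21 were higher and 2 lower (median 0.72). Without STM2457 replicate 2, 9 of 19 were higher and 6 lower, with a median of 0.26. The list level was -0.07, 1.04 and -0.05 in STM2457 replicates 1 to 3, against -0.11, -0.40 and -0.43 in DMSO. CSF1, the growth factor of macrophages, had 3731, 4173 and 3860 with STM2457, against 1071, 843.9 and 993.6 in DMSO (2.02, SE 0.10, adjusted p = 7.8e-06). NFKBIA rose by 1.22 (SE 0.17), and the low genes IL24 and IL6 had means of 123.9 and 25.2 with STM2457, against 1.53 and 3.55 in DMSO. IL24 and IL6 entered the test only through the STM2457 libraries, so their passing is no support. The 9 of 21 higher members and the median of 0.72 include IL24 and IL6.

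Glucose uptake and hypoxia genes rose in part and mitochondrial respiration genes fell. Of 34 hypoxia and glycolysis genes, 14 were higher and 2 lower (median 0.23). SLC16A3, the lactate exporter, had 3410, 4574 and 3067 with STM2457, against 769.1, 675.8 and 743.4 in DMSO (2.32, SE 0.14, adjusted p = 1.5e-05). The glucose transporter gene SLC2A3 (1.53, SE 0.10), ENO2 (1.47, SE 0.10) and ADM (1.29, SE 0.13) rose, whereas GAPDH, picked after its values were seen, fell by 0.65 on the log2 scale (SE 0.14). Of 39 nuclear oxidative phosphorylation genes, 20 were lower and 3 higher (median -0.25). SDHC of complex II (-0.66, SE 0.07), ATP5MC3 (-0.72, SE 0.08) and ATP5MC1 (-0.63, SE 0.07) of the ATP synthase fell, and UQCRFS1, the Rieske protein of complex III, rose by 0.97 (SE 0.07). Of 13 mitochondrially encoded mRNAs, 4 were lower and 1 higher (median -0.37). Only 1 was lower without DMSO replicate 1 or without DMSO replicate 3, and 2 without STM2457 replicate 3. Without STM2457 replicate 2, 6 were lower and 1 higher, and the median was -0.17.

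Cell cycle genes fell almost as a block. Of 34 G2 and M phase genes, 30 were lower and none higher (median -1.09), and without STM2457 replicate 2, the lowest library, 30 were lower with a median of -0.79. HMMR, a spindle-associated protein gene, had 267.1, 155.7 and 325.5 with STM2457, against 968.3, 794.2 and 1024 in DMSO (-1.95, SE 0.25, adjusted p = 0.00046). BUB1 (-1.20, SE 0.15), MAD2L1 (-1.06, SE 0.15) and UBE2C (-1.19, SE 0.19) of the mitotic checkpoint and exit fell too. Of 34 S phase genes, 28 were lower and 2 higher (median -0.83). The S phase counts were 27 lower and 2 higher without STM2457 replicate 2 (median -0.56), and 18 lower without DMSO replicate 3. CDC45, part of the replicative helicase, had 438.6, 276.4 and 379.9 with STM2457, against 1171, 955.3 and 1188 in DMSO (-1.61, SE 0.17, adjusted p = 0.0002). GINS4 (-1.21, SE 0.12) and the licensing factor gene CDC6 (-1.17, SE 0.14) also fell. Among D-type cyclins, CDK4/6 and CDK inhibitors, 5 of 11 were lower and none higher (median -0.17), with 3 lower without DMSO replicate 1. CDK6 fell by 0.97 on the log2 scale (SE 0.12). Replication-dependent histone genes had 9 of 27 higher, not far from the 26.2% of all genes, and 2 lower (median 0.41). Their mRNAs mostly lack poly(A) tails and several have near-identical copies.

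DNA repair genes fell with the cell cycle genes. Of 32 homologous recombination and Fanconi anemia genes, 20 were lower and 4 higher (median -0.53, and -0.35 without STM2457 replicate 2). The higher count was 1 or 2 when any DMSO library, STM2457 replicate 1 or STM2457 replicate 3 was left out, and 13 were lower without DMSO replicate 3. FANCL, the ubiquitin ligase of the Fanconi pathway, fell by 1.56 on the log2 scale (SE 0.10) and FANCA by 1.41 (SE 0.14), while FANCF rose by 1.17 (SE 0.11). Of 8 mismatch repair genes, 5 were lower and none higher (median -0.41). In base excision and direct repair, 9 of 20 were lower and 3 higher (median -0.36), with PARP2 (-1.05, SE 0.10), MUTYH (-0.97, SE 0.13) and XRCC1 (-0.76, SE 0.11) down and APEX2 (0.85, SE 0.10) up.

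Targets of p53 moved both ways, 9 of 28 higher and 9 lower (median -0.10), beside 26.2% higher and 23.6% lower over all genes. CDKN1A, the CDK inhibitor p21 and the best known p53 target, had 2478, 2051 and 2266 with STM2457, against 3280, 2727 and 2716 in DMSO (-0.36, SE 0.11, adjusted p = 0.023). MDM2 fell by 0.55 on the log2 scale (SE 0.09) and PLK2 by 1.31 (SE 0.12), whereas TP53INP1 (1.36, SE 0.11) and TIGAR (1.04, SE 0.14) rose. In the BCL2 family, 9 of 15 were higher and 2 lower (median 0.63). Both arms of the family were among the risers, with BMF (2.35, SE 0.28), BID (1.18, SE 0.12) and BAX (0.63, SE 0.08) of the death-promoting members and BCL2L1 (1.23, SE 0.08) and BCL2L2 (0.68, SE 0.09) of the protective ones.

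Most splicing factor and proteasome genes tested were lower. Of 31 SR protein and hnRNP genes, 23 were lower and 1 higher (median -0.53). HNRNPD, an AU-rich element binding protein (-0.94, SE 0.09), RBMX (-0.89, SE 0.11), HNRNPH1 (-0.82, SE 0.09) and HNRNPL (-0.82, SE 0.09) fell. Of 31 proteasome subunits, 21 were lower and 1 higher (median -0.30). The lower count was 12 without DMSO replicate 3 and 27 without STM2457 replicate 2. PSMC3 (-0.70, SE 0.09) and PSMC4 (-0.48, SE 0.09) of the regulatory cap fell and the catalytic subunit gene PSMB5 rose (0.42, SE 0.08). Of 20 aminoacyl-tRNA synthetases, 11 were lower and 2 higher (median -0.22), with 7 lower without any 1 DMSO library. Of 74 cytosolic ribosomal proteins, 23 were lower and none higher (median -0.28), beside the 23.6% of all genes that were lower. The ribosomal count was 15, 11 and 14 without DMSO replicates 1, 2 and 3, and 44 without STM2457 replicate 1. Without STM2457 replicate 2, 23 were lower and 3 higher, with a median of -0.135. The list level was 0.075, -0.43 and -0.08 in STM2457 replicates 1 to 3, against 0.09, 0.23 and 0.11 in DMSO. RPS2 (-0.68, SE 0.15) and RPS26 (-0.40, SE 0.08) were among the 23 lower over all 6 libraries. Both have processed pseudogenes that may share reads.

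Genes read out by ERK signalling fell on balance, 13 of 25 lower and 4 higher (median -0.47). EGR1, an immediate early transcription factor on chromosome 5 (138465490 to 138469315, plus strand), had 944.3, 1156 and 742.4 with STM2457, against 7938, 11450 and 8982 in DMSO (-3.32, SE 0.18, adjusted p = 9.5e-06). ETV4, an ETS factor of the same pathway, had 175.6, 215 and 183.7 with STM2457, against 1385, 1588 and 1437 in DMSO (-2.94, SE 0.11, adjusted p = 5.7e-06). ETV5 fell by 1.11 on the log2 scale (SE 0.07), and FOSL2 rose by 2.12 (SE 0.13). Receptor tyrosine kinase genes moved both ways, 11 of 23 higher and 6 lower (median 0.18). FGFR1 had 1723, 1828 and 1442 with STM2457, against 9209, 9244 and 7685 in DMSO (-2.39, SE 0.12, adjusted p = 7.1e-06), and AXL fell by 1.21 on the log2 scale (SE 0.10). INSR (0.98, SE 0.10) and EPHB2 (1.09, SE 0.12) rose. Of the YAP targets 9 of 20 were higher and 6 lower (median 0.22), including LATS2 (1.83, SE 0.11), a kinase that restrains YAP. In the TGF-beta and BMP pathway, 9 of 36 were higher and 9 lower (median 0.03), near the 26.2% and 23.6% of all genes. Its single genes included the inhibitory SMAD genes SMAD6 (2.30, SE 0.14) and SMAD7 (0.97, SE 0.11), which rose. The ligand gene BMP6 (-4.37, SE 0.23) and the antagonist gene CHRDL1 (-1.39, SE 0.15) fell. Notch genes split 3 and 3 of 17 (median -0.00), not above the 26.2% and 23.6% of all genes. Without STM2457 replicate 2, 5 were higher and 3 lower. The ligand gene JAG1 rose by 0.56 (SE 0.11) and RBPJ, the DNA-binding partner of Notch, fell (-0.49, SE 0.07).

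Matrix genes fell in part. Of 42 collagens and matrix genes, 17 were lower and 6 higher (median -0.47). The higher count was 10 without STM2457 replicate 2, and the lower count was 9 without DMSO replicate 1. The proteoglycan gene VCAN (-2.13, SE 0.19), the crosslinking enzyme gene LOXL3 (-2.59, SE 0.18), COL15A1 (-2.89, SE 0.27) and COL18A1 (-1.25, SE 0.09) fell. Of 27 integrins and laminins, 13 were lower and 8 higher (median -0.12). LAMA4, a laminin chain of vascular basement membranes, had 4677, 3807 and 5163 with STM2457, against 34660, 32690 and 26290 in DMSO (-2.78, SE 0.14, adjusted p = 8e-06). The fibronectin receptor gene ITGA5 rose by 1.83 (SE 0.17). Metalloproteinases and their inhibitors had 8 of 15 lower and 5 higher (median -0.40). MMP1, an interstitial collagenase, had 202.7, 93.35 and 151.8 with STM2457, against 1.586, 0 and 1.133 in DMSO, and TIMP2 rose by 1.51 (SE 0.17). Among IGF genes, a list that also counts the noncoding RNA H19 among its fallers, 6 of 11 were higher and 3 lower (median 0.39). IGF1 had 176.6, 62.27 and 74.98 with STM2457 and was listed at 0 in all 3 DMSO libraries. MMP1 and IGF1 entered the test only through the STM2457 libraries, so their passing is no support. The higher counts and medians of their lists include them. IGFBP3, a carrier of IGF1, had 613, 355.5 and 398.5 with STM2457, against 5162, 3662 and 2935 in DMSO (-3.10, SE 0.24).

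The largest falls belonged to genes of varied function. H19, a long noncoding RNA of the imprinted region of chromosome 11 (1995176 to 2001470, minus strand), had 77.76, 16.3 and 51.02 with STM2457, against 4580, 6977 and 4806 in DMSO (-7.02, SE 0.48, adjusted p = 2.3e-05). MAG, a myelin adhesion protein on chromosome 19 (35292125 to 35313804, plus strand), had 77.08, 48.06 and 41.47 with STM2457, against 1682, 2104 and 1650 in DMSO (-5.04, SE 0.22, adjusted p = 6e-06). Its neighbour CD22 (35319261 to 35347355 on the same strand), a sialic acid binding lectin known from B cells, fell by 3.39 on the log2 scale (SE 0.15). ST8SIA5, a ganglioside sialyltransferase, had 293.6, 817.5 and 565.8 with STM2457, against 20620, 20360 and 19230 in DMSO (-5.28, SE 0.31, adjusted p = 1.3e-05). The lipid transporter gene ABCA13 had 265.7, 280.9 and 242.3 with STM2457, against 4462, 4168 and 3749 in DMSO (-3.97, SE 0.10, adjusted p = 1.2e-06). The groups lay far apart for all of these genes. The potassium channel gene KCNA2 (-5.39, SE 0.27), LPL, the secreted lipase of triglyceride uptake (-4.59, SE 0.23), MYCN (-4.14, SE 0.42), ABI3BP (-4.13, SE 0.55) and the water channel gene AQP1 (-3.91, SE 0.19) were also among the largest falls.

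Glial identity genes did not all follow MAG. SOX10, the transcription factor that drives myelin genes, had 41610, 47030 and 47020 with STM2457, against 33270, 36650 and 35540 in DMSO (0.36, SE 0.11, adjusted p = 0.025). OLIG2 fell by 1.36 on the log2 scale (SE 0.13), S100B by 1.99 (SE 0.17), SOX2 by 0.44 (SE 0.12), NES by 0.46 (SE 0.10) and VIM by 0.80 (SE 0.19), while CD44 rose by 1.24 (SE 0.10). The neuronal genes SNAP25 (-1.80, SE 0.15) and MAP2 (-0.96, SE 0.12) fell, and SLC17A7 (2.32, SE 0.22) and GAD1 (0.96, SE 0.11) rose. Of the microglia and endothelial markers, CD68, a lysosomal membrane protein, rose by 2.34 (SE 0.36) and KDR by 2.87 (SE 0.44), while TMEM119 entered the test only through the STM2457 libraries. Means with STM2457 were 440.9 for CD68, 23.3 for TMEM119 and 110.1 for KDR, against 80.3, 4.3 and 14.9 in DMSO.

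The largest rises outside these lists were spread over functions. PHACTR1, a regulator of actin and protein phosphatase 1, had 2141, 1773 and 1673 with STM2457, against 27.99, 15.02 and 31.49 in DMSO (6.23, SE 0.26, adjusted p = 5.7e-06). FAM167B had 1287, 1097 and 951.4 with STM2457, against 15.84, 8.736 and 23.48 in DMSO (6.12, SE 0.31, adjusted p = 8e-06). NECAB2, a neuronal calcium-binding protein, had 175.3, 903.1 and 173.6 with STM2457, against 0.5605, 9.778 and 3.014 in DMSO (6.22, SE 0.81), with replicate 2 the highest in both groups. CHI3L1, a secreted glycoprotein of reactive glia, had 1695, 325.4 and 691.8 with STM2457, against 41.86, 9.613 and 18.45 in DMSO (5.13, SE 0.64, adjusted p = 0.00041). Replicate 2 was the lowest for CHI3L1 in both groups. The angiotensinogen gene AGT (5.20, SE 0.47), the adaptor gene FYB1 (4.58, SE 0.36) and the noncoding RNA PELATON (4.31, SE 0.21) were also among the 12 largest rises. NECAB2 and AGT entered the test only through the STM2457 libraries, so their passing is no support. UTP14C, which derives from a copy of another gene and is therefore uncertain, had 388.2, 178.7 and 305.6 with STM2457, against 0, 0 and 153.6 in DMSO.

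ABCA13 and MAG were also among the genes with the lowest adjusted p. MFSD5, a molybdate transporter gene on chromosome 12 (53251251 to 53254405, plus strand), had 7483, 7975 and 7618 with STM2457, against 771, 891.7 and 899 in DMSO (3.17, SE 0.09, adjusted p = 1.2e-06). METRNL, a secreted factor (2.62, SE 0.10), and TANGO2 (2.03, SE 0.08) rose, and the corepressor gene HR (-2.61, SE 0.11) and the ubiquitin ligase gene TRIM9 (-1.89, SE 0.08) fell, all with an adjusted p of at most 6e-06.

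Changes followed the number of exons of a gene. This grouping was chosen after the values were seen, and it uses 1 transcript per gene of GENCODE 29 for 13106 genes tested. The median log2 change was 0.38 for 308 genes with 1 exon, 0.52 for 645 with 2, 0.32 for 800 with 3, 0.12 for 1981 with 4 to 5 and 0.00 for 2518 with 6 to 8. It was -0.04 for 2538 genes with 9 to 12 exons, -0.07 for 2558 with 13 to 20 and -0.11 for 1758 with more than 20. Of genes with 2 exons, 54.9% were higher and 8.22% lower, and of genes with more than 20 exons, 18.4% were higher and 32.1% lower. Over all 13106 genes 28.7% were higher and 24.6% lower, with a median of 0.02. The 776 genes whose coding sequence lies in 1 exon had a median of 0.50, 52.1% higher and 10.8% lower. Genes share pathways and are not independent replicates, so these shares are a description.

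**Figure D4:**
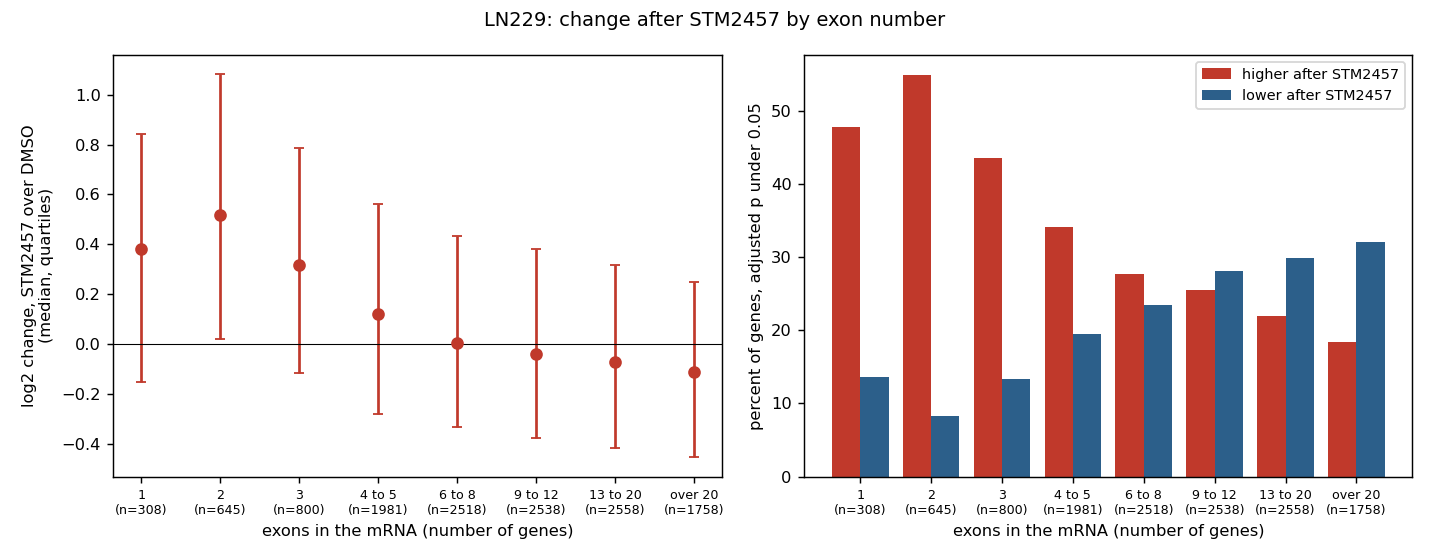
Log2 change with STM2457 in LN229 by number of exons (median with quartiles) and percent of genes higher and lower in each exon group. The median lies above 0 for genes with up to 5 exons and below 0 for genes with 9 or more, with 2-exon genes the highest at 0.52.

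Genes with 1 coding exon include several named above. MFSD5 was the one with the lowest adjusted p. RHOG, a small GTPase gene, had 1844, 1887 and 1708 with STM2457, against 541.2, 521.9 and 531.6 in DMSO (1.77, SE 0.08). POMGNT2, a glycosyltransferase gene of dystroglycan (1.66, SE 0.08), PDP1, a phosphatase gene of pyruvate dehydrogenase (1.53, SE 0.07), DEPP1 (2.56, SE 0.13) and the potassium channel gene KCNS3 (2.42, SE 0.12) rose with it. KCNA2, also with 1 coding exon, was among the largest falls. The order by exon number was the same within 3 equal groups of genes by mRNA length, by mean level and by GC content. Among the shortest mRNAs the median was 0.42 for genes with 1 to 2 exons and -0.17 for genes with more than 12, and among the longest it was 0.48 and -0.06. The median was also compared within exon classes by the number of copies of GGACT, a frequent sequence of m6A sites. Genes with 1 to 2 exons had medians of 0.26 with no GGACT, 0.42 with 1 to 2, 0.58 with 3 to 5 and 0.56 with more than 5. Genes with 3 to 5 exons had 0.00, 0.07, 0.29 and 0.35 in the same classes. Genes with 6 to 12 exons had -0.16, -0.09, 0.04 and 0.13, and genes with more than 12 exons had -0.12, -0.17, -0.12 and 0.00. The medians thus climbed at every step for genes with 3 to 5 and with 6 to 12 exons. They did not for genes with 1 to 2 or with more than 12 exons. A longer mRNA holds more copies of any short sequence, and the part of length in this order was not tested. The other lines gave the same order with different sizes. Genes with 2 exons had medians of 0.48 in LN229-R and 0.33 in U87 MG, and genes with more than 20 exons had -0.12 in LN229-R and -0.08 in U87 MG.

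LN229-R cells are the most closely related line, and the comparison asks whether the effect differs between parental and resistant cells. Both LN229-R groups had 50 µM temozolomide in the medium, so resistance and the drug in the medium cannot be told apart. No library is shared by the contrasts. STM2457 changed 6591 of 17063 genes in LN229-R (38.6%), 3674 higher (21.5%) and 2917 lower (17.1%). The effects in LN229 and LN229-R had a Pearson correlation of 0.889 over 16511 genes, given as a description because genes are not independent replicates. Among these genes, 5627 changed the same way in both lines, which is 67.9% of the calls in LN229 and 86.8% of those in LN229-R, and 4 changed in opposite ways. The difference between the effects passed for 1 gene (0.00606% of 16511, limma) and had an unadjusted p under 0.05 for 651 (3.94%). That gene was the ribosomal RNA locus RNA5-8SN2 on chromosome 21 (8212572 to 8212724, plus strand), which has near-identical copies and is uncertain. It had 119.3, 138.2 and 105.1 normalized counts with STM2457 in LN229 and was listed at 0 in all 3 DMSO libraries. RNA5-8SN2 thus entered the LN229 test only through the STM2457 libraries, so its passing is no support. In LN229-R the same locus had a log2 change of -7.10 (adjusted p = 0.00015), opposite to the 6.92 in LN229, which depends on the pseudocount because of the zeros. With the replicate number as a block, the difference passed for 3 genes, RNA5-8SN2, CD22 (1.47, SE 0.13, adjusted p = 0.015) and CEBPD (-1.54, SE 0.15, adjusted p = 0.024). Without the block the adjusted p was 0.79 for CD22 and 0.37 for CEBPD. CD22 had log2 changes of -3.39 in LN229 and -4.85 in LN229-R, and CEBPD had 2.60 in LN229 and 4.14 in LN229-R. The median SE of a difference was 0.24, and large differences of single genes also missed the threshold, as for AQP1 (-2.41, SE 0.34, adjusted p = 0.063) and NUPR1 (-2.81, SE 0.91, adjusted p = 0.9). Few calls therefore do not show equal effects.

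Some named genes had like values in the LN229 lines and others did not. NAGLU rose by 2.03 (SE 0.07) in LN229 and 2.12 (SE 0.14) in LN229-R, ATF3 by 2.89 (SE 0.13) in LN229 and 3.02 (SE 0.17) in LN229-R, and GPNMB by 4.25 (SE 0.49) in LN229 and 5.34 (SE 0.21) in LN229-R. EGR1 had log2 changes of -3.32 (SE 0.18) in LN229 and -4.04 (SE 0.30) in LN229-R, and H19 had -7.02 (SE 0.48) in LN229 and -9.12 (SE 0.50) in LN229-R. AQP1 had -3.91 (SE 0.19) in LN229 and -1.50 (SE 0.29) in LN229-R, and NUPR1 had 5.15 (SE 0.35) in LN229 and 7.96 (SE 0.73) in LN229-R. G2 and M phase genes had 30 of 34 lower (median -1.09) in LN229 and 5 of 34 lower (median -1.26) in LN229-R. For S phase the counts were 28 of 34 (median -0.83) in LN229 and 8 of 34 (median -1.03) in LN229-R. With the replicate block in LN229-R, 31 of 34 G2 and M phase genes and 28 of 34 S phase genes were lower there. No gene of either list passed the test of the difference between the lines, with or without the block.

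U87 MG is the other parental glioblastoma line. It was grown in another medium and prepared with another library kit, so line, medium and kit cannot be told apart in this comparison. STM2457 changed 2228 of 16407 genes in U87 MG (13.6%), 1289 higher (7.86%) and 939 lower (5.72%). The effects in LN229 and U87 MG had a correlation of 0.384 over 13887 genes. Of these, 1322 changed the same way in both, 18.5% of the calls in LN229 and 64.9% of those in U87 MG, and 139 changed in opposite ways. The difference between the effects passed for 2612 genes (18.8%), 1604 with a more positive effect in LN229 (11.6%) and 1008 with a more negative one (7.26%). With libraries scaled to equal totals the split was 1298 and 1546.

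Lysosomal genes differed between these lines. In U87 MG, 11 of 61 hydrolases and membrane proteins were higher and 4 lower (median 0.05), and the difference passed for 32 members above 0 and 1 below. CTSL rose by 1.47 (SE 0.08) in LN229 and stood at 0.05 (SE 0.14, adjusted p = 0.84) in U87 MG, a difference of 1.42 (SE 0.17, adjusted p = 0.00013). NAGLU rose in both lines, by 2.03 in LN229 and 1.04 (SE 0.11) in U87 MG, and still differed by 0.99 (SE 0.13, adjusted p = 0.00028). MFSD5 likewise rose by 3.17 in LN229 and 1.64 (SE 0.11) in U87 MG, with a difference of 1.54 (SE 0.14, adjusted p = 2.4e-05). The NRF2 list had 3 of 26 higher in U87 MG (median 0.01) and the difference passed for 12 above 0 and none below. HMOX1 rose by 2.85 (SE 0.11) in LN229 and had 0.49 (SE 0.17, adjusted p = 0.093) in U87 MG, a difference of 2.36 (SE 0.22, adjusted p = 3e-05). The difference in YTHDF2 did not pass, at 0.86 (SE 0.07) in LN229 and 0.74 (SE 0.09) in U87 MG (difference 0.11, SE 0.09, adjusted p = 0.42).

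Hypoxia, amino acid and antigen presentation genes moved on balance in opposite directions in the parental lines. Hypoxia and glycolysis genes had 14 of 34 higher and 2 lower in LN229, against none higher and 21 lower in U87 MG (median -0.59), and the difference passed for 22 above 0 and none below. SLC16A3 rose by 2.32 (SE 0.14) in LN229 and fell by 1.10 on the log2 scale (SE 0.14, adjusted p = 0.0027) in U87 MG, a difference of 3.41 (SE 0.22, adjusted p = 2.8e-06). SLC7A5 rose by 2.63 (SE 0.21) in LN229 and fell by 0.92 on the log2 scale (SE 0.20, adjusted p = 0.019) in U87 MG, a difference of 3.55 (SE 0.32, adjusted p = 2.8e-05). ATF4 targets had 2 of 30 higher and 6 lower in U87 MG (median -0.31), with a difference above 0 for 14 and below 0 for none. MHC class I genes had none of 15 higher and 8 lower in U87 MG (median -0.42), and the difference was above 0 for 12. HLA-E rose by 1.25 (SE 0.11) in LN229 and had -0.30 (SE 0.10, adjusted p = 0.071) in U87 MG, a difference of 1.54 (SE 0.15, adjusted p = 3.9e-05).

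Some cell cycle genes fell in both parental lines, and the difference passed for few of them. In U87 MG, 12 of 34 G2 and M phase genes were lower (median -0.55) and 6 of 34 S phase genes (median -0.25). The difference was below 0 for 1 G2 and M phase gene and above 0 for 1, and below 0 for 3 S phase genes. LAMA4 had log2 changes of -2.78 (SE 0.14) in LN229 and 0.19 (SE 0.15, adjusted p = 0.43) in U87 MG, a difference of -2.97 (SE 0.22, adjusted p = 6.5e-06). For ETV4 the values were -2.94 (SE 0.11) in LN229 and -0.07 (SE 0.19, adjusted p = 0.84) in U87 MG, a difference of -2.86 (SE 0.23, adjusted p = 1.2e-05). EGR1 fell in both lines, with log2 changes of -3.32 in LN229 and -1.15 (SE 0.11) in U87 MG and a difference of -2.18 (SE 0.22, adjusted p = 5.4e-05).

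**Figure D5:**
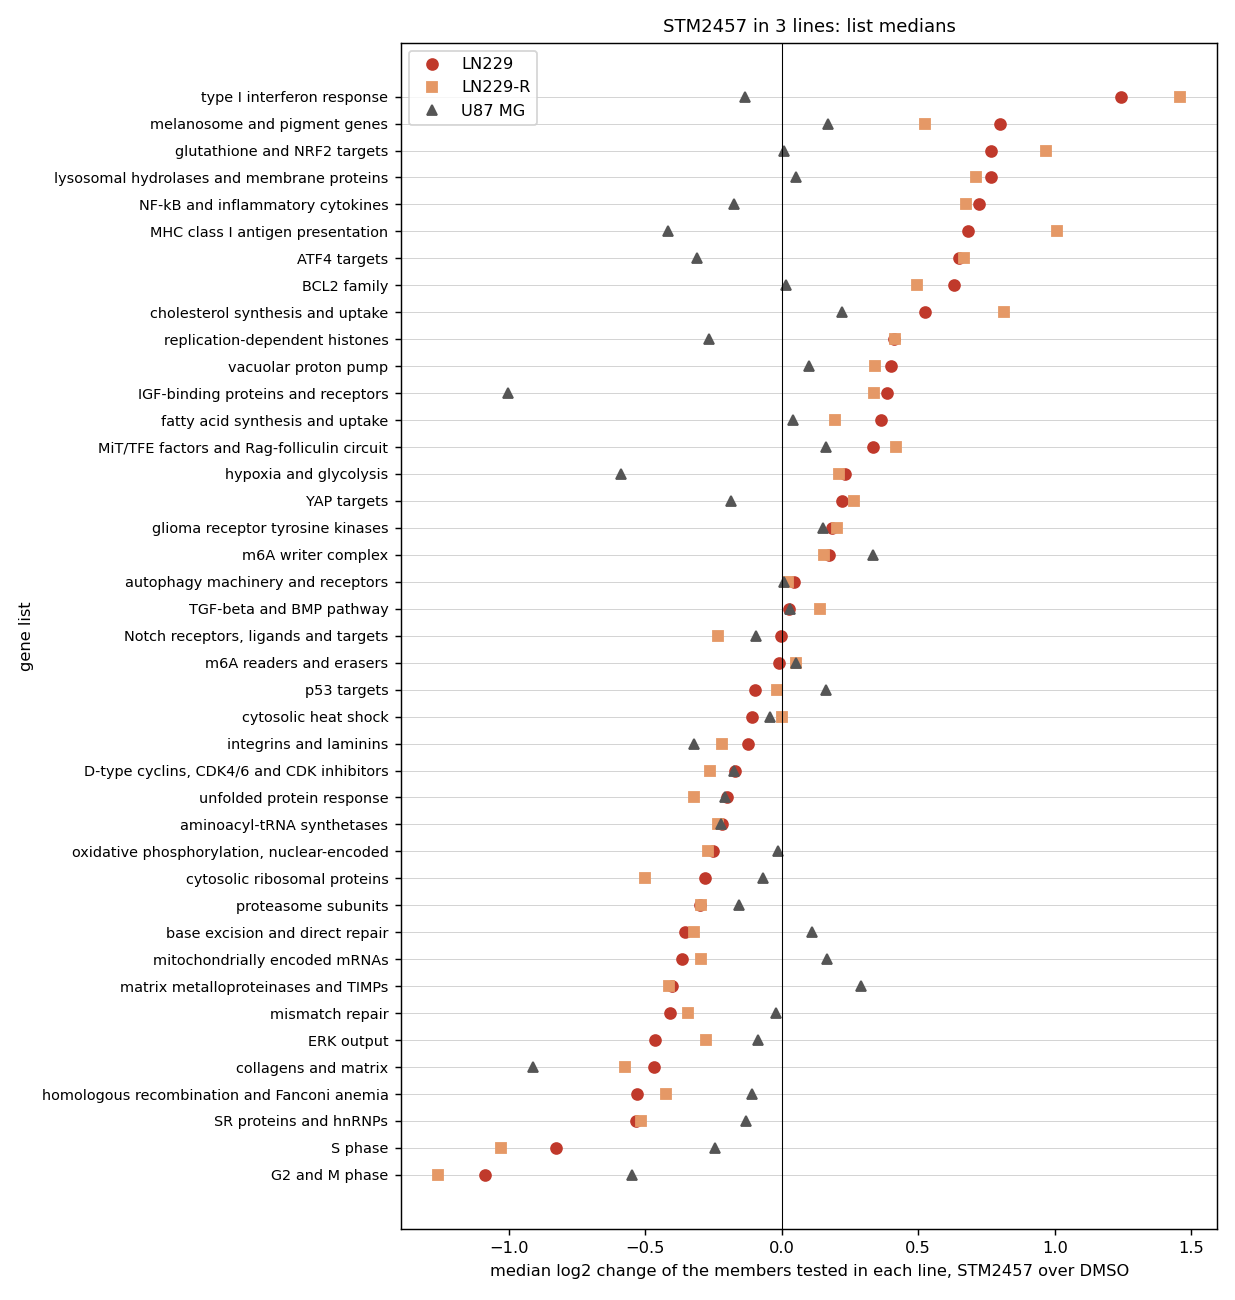
Median log2 change with STM2457 over the tested members of each gene list in LN229, LN229-R and U87 MG. Hypoxia and glycolysis genes had medians of 0.23 in LN229, 0.21 in LN229-R and -0.59 in U87 MG, and collagens and matrix genes had -0.47 in LN229, -0.57 in LN229-R and -0.91 in U87 MG.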

How the data were processed

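RNA-seq of LN229 cells gave 6 libraries, and 12 further libraries of LN229-R and U87 MG were used to compare effects. What the authors deposited is a signal per gene, namely normalized counts. Per the submitters' processing notes, the authors used GRCh38 with Salmon 1.4.0, STAR 2.7.11a, Trimmomatic 0.39 and DESeq2, and their settings are not given in the sources used here. The factors differ between genes, so whole reads were not recovered and no count test was run. Each table was normalized separately, and only contrasts within a table were compared.

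From these values, log2(normalized count + 1) was fitted with limma 3.58.1 in R 4.3.3 (variance trend, genes with a mean of at least 10, Benjamini and Hochberg, threshold 0.05). Differences between lines were tested as interaction contrasts over 12 libraries. Deviations of like-numbered libraries correlated at 0.102 to 0.321 in LN229-R, all over 0.1, so the replicate block is given there where it changes a count by over 1.5 times. DMSO replicate 3 of LN229-R correlated more with STM2457 replicate 1 (0.169) than with STM2457 replicate 3 (0.102). The pairing by number there is therefore uncertain. Steps were tested on simulated data. Exon structure and coordinates came from GENCODE 29 and promoters from RefSeq. Tables and figures used Python 3.11.15, numpy 2.4.6, pandas 2.3.3 and matplotlib 3.10.9.

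Genes were named by a rule: the 12 largest rises and falls, the 5 lowest adjusted p in each direction, a panel, up to 4 passing members of each of 41 pathway lists, and the 6 largest differences between lines, with a mean of at least 100 where values ranked them. A few genes selected by the rule are not reported here. The members, lists and rule were chosen with earlier results of these data known, so lists carry no p of their own. The panel gene MGMT was not analysed here. Alternatives covered pseudocounts, filters, scaling, the variance trend, stricter thresholds, the replicate block, each library left out and, added after the data were seen, list counts without each library, exon groupings and the motif TCATGTG.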

Additional observations from a re-analysis of the deposited data

Results flagged for a closer look

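The effect of STM2457 differed between lines for these genes by a test of the difference itself (limma, adjusted p under 0.05), each given as a difference of log2 changes. LN229 minus LN229-R was 14.02 for RNA5-8SN2, a locus with near-identical copies and zeros in all LN229 DMSO libraries, with log2 changes of 6.92 in LN229 and -7.10 in LN229-R. LN229 minus U87 MG was 5.88 for PHACTR1, 6.90 for NECAB2, 4.90 for FAM167B, 5.14 for NUPR1, 5.55 for CHI3L1 and 4.92 for CAPN3. It was -4.77 for H19, -4.52 for BMP6, -4.84 for ABCA13 and -4.97 for CD22. For AMIGO3 the difference was -4.72, with log2 changes of 0.96 in LN229 and 5.68 in U87 MG. RNA5-8SN2 and NECAB2 passed the filter in LN229 only through the STM2457 libraries, so their passing is no support. Line, medium and library kit cannot be told apart in the differences from U87 MG.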

How the results depend on the processing

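The count of changed genes was 8506 (4474 higher and 4032 lower). It was 5480 (3113 and 2367) at an adjusted p under 0.01 and 2867 (1738 and 1129) with a log2 change of at least 1. Equal totals gave 4265 higher and 4324 lower, and equal upper quartiles 3964 and 4754, so the share of higher calls moves with the scaling, and the list medians near 0 of the autophagy genes and the TGF-beta and BMP pathway turned negative with equal upper quartiles. Leaving out 1 library gave 6591 to 8621 (3690 to 4490 higher and 2901 to 4131 lower). The difference from LN229-R passed for 1 gene, for 2 with a pseudocount of 0.5 (2 above 0), for 4 with equal totals (2 above 0 and 2 below), for 2 with no variance trend (2 above 0) and for 1 to 3 without 1 library (1 to 2 above 0 and 0 to 1 below). The difference from U87 MG below 0 passed for 1546 genes with equal totals and 611 to 886 without 1 library. LN229 libraries with the same number had correlations of deviations of 0.068 to 0.099, under 0.1, so the numbers were not taken to pair them. Every LN229 library nevertheless correlated best with its own number, and 0.099 is close to the lowest value of LN229-R, 0.102. In U87 MG the correlations were 0.186, 0.039 and 0.175 for replicates 1 to 3. No count with the block is given for U87 MG alone. In LN229-R the correlations were 0.102 to 0.321, all over 0.1, and the block gave 8444 changed genes there (4405 higher and 4039 lower) in place of 6591, besides the values given in the report. DMSO replicate 3 of LN229-R did not correlate best with its own number. In LN229 the block gave 8444 changed genes, by coincidence the same total (4456 higher and 3988 lower), and the differences passed for 3 genes for LN229-R (2 above 0 and 1 below) and 3473 for U87 MG. Among genes that did not pass, the log2 change spanned 0 without 1 library for METTL3 (-0.0997 to 0.034, above 0 without STM2457 replicate 2), METTL14 (-0.0056 to 0.27), CBLL1 (-0.094 to 0.07) and GFAP (-1.35 to 1.33), and CBLL1 was 0.15 with the names exchanged. The cause was not tested. Of the 215 named genes past the threshold, 0 to 11 no longer passed without 1 library, 2 with equal upper quartiles, 5 with no variance trend and 26 with the names exchanged. The depth of the libraries is unknown, so no counting error is given.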
